A study of Mus musculus with 9 samples.

Results

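The genes described here are 10 genes commonly used to recognise Mueller glia, the glial cells that span the thickness of the retina: Glul, Apoe, Slc1a3, Aqp4, Vim, Gfap, Dkk3, Clu, Sox8 and Sox9. Membership rests on the gene's name alone. On the array they were represented by 24 probes of 56605 gene probes, and they make up 10 of 37325 genes. Of the 24 probes, 21 passed the scanner's well-above-background test on 3 or more of the 9 arrays, and all 10 genes were among the 23594 genes tested.

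The samples were mouse retinal organoids, retina-like tissue grown from ES or iPS cells in floating aggregates. Bhlhb4 knockout organoids (B4KO; the gene is now called Bhlhe23), Islet-1 knockout organoids (Isl1KO) and wild-type organoids (WT) were each collected on differentiation days 10, 16 and 23 (DD10, DD16 and DD23). Both knockouts were intended to deplete bipolar cells, a class of retinal interneuron. Every sample was RNA pooled from 5 organoids and hybridised to 1 single-colour array, so that no line had a replicate on any day. Precision is limited by having only 9 arrays. How many clones each line represents is not stated in the labels.

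Mueller glia arise late from the same multipotent progenitors that make the retinal neurons. They keep part of the progenitor programme, including the filament protein vimentin and the transcription factor Sox9, and later gain genes for glutamate recycling, potassium and water balance and lipid transport. The 10 genes were therefore read in 2 groups of 5. The progenitor-shared group held Vim, Sox9, Sox8, Slc1a3 and Dkk3, which retinal progenitors also express to different degrees. The mature glial group held Glul, Apoe, Aqp4, Gfap and Clu. In pooled RNA from whole organoids, fewer cells of a type and less RNA per cell cannot be told apart, and several of these genes are also made by astrocytes, neurons or choroid plexus.

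The probe for Bhlhe23 was not well above background in B4KO organoids at DD16 and DD23, whereas it was well above background in WT organoids on all 3 days and in Isl1KO organoids at DD10 and DD16. At DD10 its level was -3.41 in B4KO organoids and -3.20 in WT organoids. At DD16 it was -4.875 in B4KO and -4.549 in Isl1KO organoids. The lowest signals counted as well above background on these arrays were -4.59 and -5.15. Over the 3 days, Isl1KO minus B4KO was 0.29 (adjusted p = 0.69 by limma). B4KO minus WT was -1.45 (adjusted p = 0.0691 by limma) and Isl1KO minus WT was -1.16 (adjusted p = 0.607 by limma). The probe thus did not separate the 2 knockouts. Isl1 was measured by probes at separate positions: the one starting at 117099663 on chromosome 13 (its higher coordinate, build mm9) lay at -1.24, -0.44 and -1.63 in Isl1KO organoids at DD10, DD16 and DD23, against -0.60, 1.45 and -0.05 in WT organoids, while the other did not separate the lines on every day. On the first of these Isl1 probes, Isl1KO minus WT was -1.37 over the 3 days and did not pass (adjusted p = 0.44 by limma). Isl1KO minus B4KO was -1.79 (adjusted p = 0.0125 by limma). Where the deletions lie relative to these probes is not given, so the probes are only a partial check of the labels. The 8 retina identity genes examined, including Rax, Six6 and Pax6, were well above background on every array. B4KO was hybridised on a slide of its own, and Isl1KO and WT shared the other slide, so that the B4KO line and its slide cannot be told apart. On both slides the 3 days occupied array columns 2, 3 and 4, so day and column cannot be told apart either. On their shared slide Isl1KO lay in row 1 and WT in row 2, so line and row cannot be told apart there.

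Promoter sequences of 4 members are shown because these genes took different courses: Apoe and Gfap came up late, Slc1a3 rose 1.5-fold at DD23 over DD16 on its brighter probe and Vim declined. The sequences are the 250 bases before the annotated start in RefSeq, build GRCm38.p6, written 5′ to 3′ on the gene's own strand (Apoe at chr7:19699189-19699438, minus strand; Gfap at chr11:102897201-102897450, minus strand; Slc1a3 at chr15:8710808-8711057, minus strand; Vim at chr2:13574061-13574310, plus strand). Capitals mark matches on either strand to any of 6 motifs: the AP-1 site TGANTCA, the STAT site TTCNNNGAA, the SOX site AACAAT, the NFI site TTGGC, the TATA box TATAAA and the SP1 box GGGCGG.
Apoe: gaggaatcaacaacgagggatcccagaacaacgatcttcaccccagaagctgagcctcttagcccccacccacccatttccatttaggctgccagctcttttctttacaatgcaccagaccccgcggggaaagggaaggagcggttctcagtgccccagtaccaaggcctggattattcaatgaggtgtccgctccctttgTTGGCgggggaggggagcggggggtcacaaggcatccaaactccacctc
Gfap: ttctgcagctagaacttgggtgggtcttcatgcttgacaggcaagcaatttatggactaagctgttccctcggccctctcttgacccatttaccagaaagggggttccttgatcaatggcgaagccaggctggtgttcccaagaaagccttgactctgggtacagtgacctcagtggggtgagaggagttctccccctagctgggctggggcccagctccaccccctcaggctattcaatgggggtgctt
Slc1a3: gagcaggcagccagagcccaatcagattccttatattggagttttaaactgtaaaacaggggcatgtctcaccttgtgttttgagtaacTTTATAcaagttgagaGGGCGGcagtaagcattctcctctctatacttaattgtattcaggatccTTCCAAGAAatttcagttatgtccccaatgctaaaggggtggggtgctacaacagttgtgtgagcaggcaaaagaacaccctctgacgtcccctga
Vim: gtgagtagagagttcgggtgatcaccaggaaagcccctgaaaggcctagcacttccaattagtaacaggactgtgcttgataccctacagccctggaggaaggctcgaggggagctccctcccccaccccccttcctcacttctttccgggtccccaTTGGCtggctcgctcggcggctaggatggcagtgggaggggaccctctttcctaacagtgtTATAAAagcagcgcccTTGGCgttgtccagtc
Apoe held 1 NFI site and no other match, and Gfap held none of the 6 motifs in this window. Slc1a3 held a STAT site, an SP1 box and, on the opposite strand, a TATA box, and Vim held 2 NFI sites and a TATA box that started 32 bases before the gene's start. Among 27025 mouse promoters of the same length, the NFI site occurred in 41.9%, the SP1 box in 33%, the TATA box in 13%, the SOX site in 9.62%, the STAT site in 7.14% and the AP-1 site in 6.85%. These are matches of letters only. RefSeq promoter entries were found for 6 of the 10 genes.

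Levels below are log2 intensities relative to the array's 75th percentile of gene spots, so that 0 is the 75th percentile and 1 unit is 1 doubling. They compare 1 probe between arrays and not 1 gene with another. Where a gene had several probes, the brightest was used. Differences between days were tested over the 3 lines, and differences between lines over the 3 days, in 1 additive limma model across 23594 genes with Benjamini-Hochberg adjustment, and "passed" means an adjusted p below 0.05. With 1 array per line and day, the error in this model is the departure from additivity.

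Between DD10 and DD23, 3 of the 5 mature glial genes rose (Apoe, Gfap and Clu), none fell, and the median log2 difference of the 5 was 1.43, against 0.05 over all genes tested. Aqp4 did not pass on its brightest probe (0.06, adjusted p = 0.655 by limma). Its other 2 measurable probes rose, by 1.90 (adjusted p = 0.00104) and 1.01 (adjusted p = 0.0199). These come from a limma fit of all 36326 probes, of which 59.6% changed over this interval. In the progenitor-shared group 2 of 5 rose (Slc1a3 and Sox8), 1 fell (Vim), and the median was 0.34. The Slc1a3 rise was lost in 3 of 17 alternative analyses, among them the mean over its probes (0.06, adjusted p = 0.67 by limma), and its dimmer probe gave -0.33. The 2 groups of genes were not tested against each other. Over the same interval 60.7% of all genes tested changed, 31.6% upward and 29.2% downward, so the count of 6 of 10 members is close to the background and is no result about the set as a whole.

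**Figure D1:**
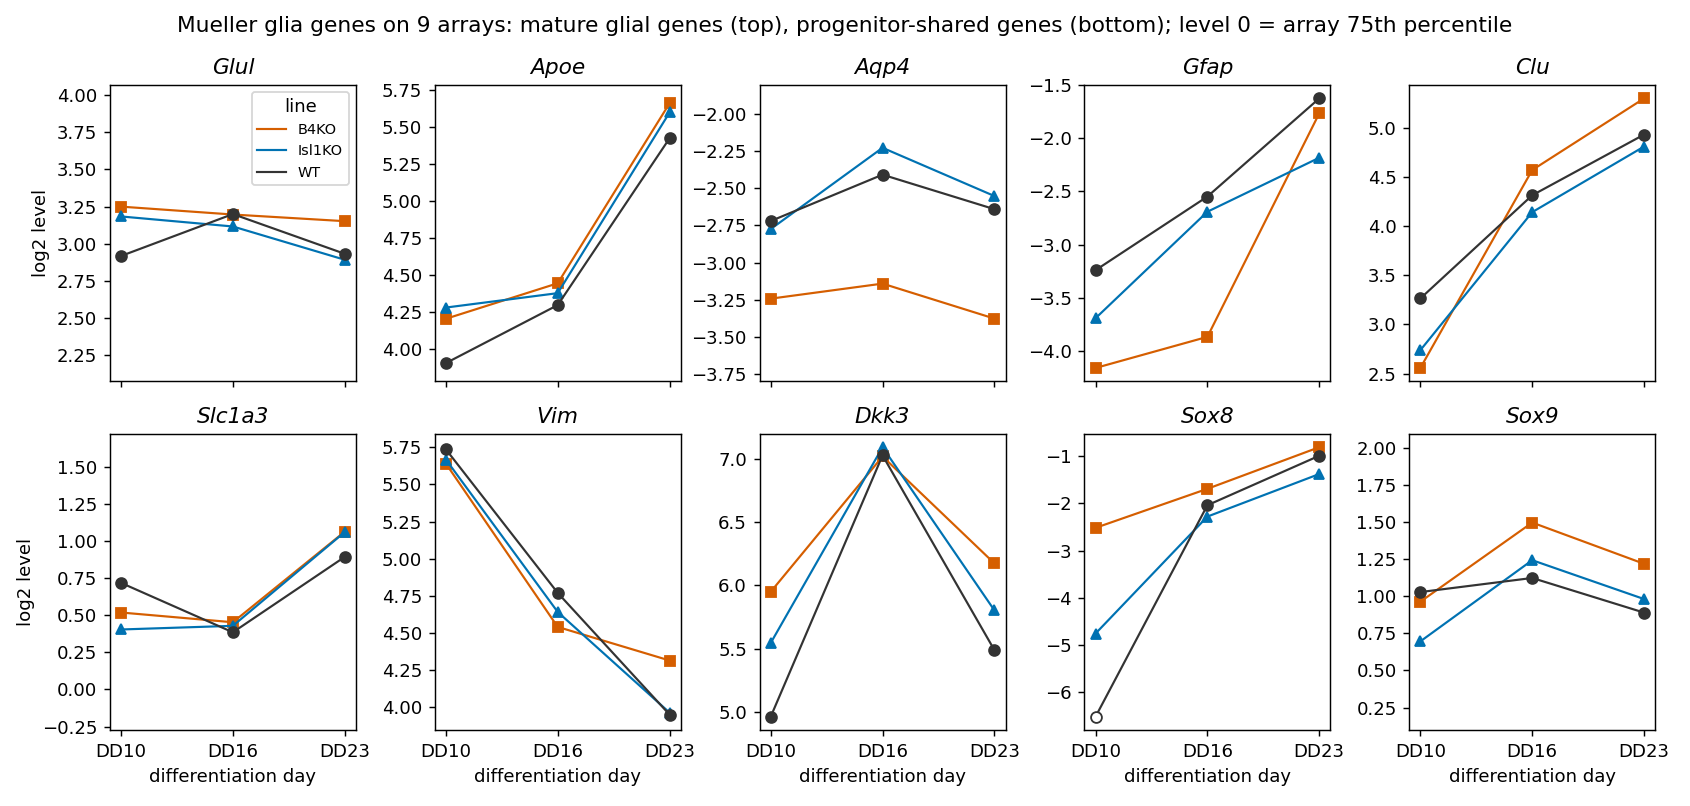
Level of each of the 10 genes on the 9 arrays, on the log2 scale relative to the array's 75th percentile (vertical axes differ between panels), by differentiation day, with a square for B4KO, a triangle for Isl1KO and a circle for WT, and an open symbol where the probe was not well above background. Apoe steps up at DD23 and Vim declines throughout in all 3 lines, while Dkk3 peaks at DD16.

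Apoe, the lipid carrier that glia secrete, was high throughout and stepped up late. Its levels at DD10, DD16 and DD23 were 4.21, 4.45 and 5.66 in B4KO organoids. In Isl1KO organoids they were 4.28, 4.38 and 5.60, and in WT organoids 3.91, 4.30 and 5.42. All 3 arrays of DD23 lay above the 6 earlier arrays. The DD23 minus DD16 difference was 1.19 (SE 0.08, adjusted p = 0.000764 by limma), 2.27-fold, and the individual lines gave 1.21, 1.22 and 1.13. From DD10 to DD16 the difference was 0.24 and did not pass (adjusted p = 0.0552). A second, dimmer Apoe probe gave 1.32 for DD23 minus DD16.

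Clu encodes clusterin, a secreted chaperone also known as apolipoprotein J, and rose at both steps. In B4KO organoids it was at 2.56, 4.57 and 5.30 on DD10, DD16 and DD23. The same days gave 2.74, 4.14 and 4.81 in Isl1KO organoids and 3.26, 4.31 and 4.93 in WT organoids. No array of a later day fell to the level of an earlier day. The DD16 minus DD10 difference was 1.49 (SE 0.21, adjusted p = 0.00386), 2.81-fold, and was 2.01 in B4KO, 1.4 in Isl1KO and 1.05 in WT organoids. The DD23 minus DD16 difference of 0.67 (SE 0.21, adjusted p = 0.0454) was near the threshold, and leaving out any one of 7 of the 9 arrays took it past 0.05, up to 0.158 without WT at DD16.

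Gfap, the intermediate filament of reactive and fibrous glia, was dim but measurable. Its brighter probe lay at -4.16, -3.87 and -1.77 in B4KO organoids on the 3 days. Isl1KO organoids had -3.69, -2.69 and -2.18, and WT organoids had -3.24, -2.55 and -1.63. Each line was highest at DD23, and the DD16 and DD10 arrays overlapped across lines. Gfap rose by 1.18 at DD23 over DD16 (SE 0.28, adjusted p = 0.0202), 2.26-fold, but unevenly: the rise was 2.10 in B4KO, 0.51 in Isl1KO and 0.92 in WT. Without the WT array of DD16 the difference was 1.25 and did not pass (adjusted p = 0.0602).

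A second Gfap probe, annotated to another transcript of the gene, was well above background on all 3 arrays of DD23 and on none of DD16. It had -2.53 in B4KO, -3.64 in Isl1KO and -2.44 in WT organoids at DD23. With the dim arrays held at the lowest signal counted as well above background on each, this is at least 3.44-fold higher at DD23 than at DD16. On the values as measured the probe passed (adjusted p = 0.00536 by limma in a fit of all 36326 probes). Those values include DD16 arrays that were not well above background, and the bound itself was not tested. At DD10 this second probe was well above background in 1 of 3 lines, Isl1KO, at -4.90. That level lay below the lowest signal counted as well above background on the WT (-4.52) and B4KO (-4.85) arrays of DD10.

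Glul encodes glutamine synthetase, which turns glutamate taken up from synapses into glutamine and is a classical marker of mature Mueller glia. Its level was 3.25, 3.20 and 3.15 in B4KO organoids on the 3 days, 3.18, 3.12 and 2.89 in Isl1KO organoids, and 2.92, 3.20 and 2.93 in WT organoids. All 9 values lay within 0.36 of each other and the days overlapped. Neither step passed, with differences of 0.05 (SE 0.10, adjusted p = 0.682) from DD10 to DD16 and -0.18 (SE 0.10, adjusted p = 0.192) from DD16 to DD23. The 3 Glul probes gave differences from -0.30 to -0.18 at the later step, none of which passed.

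Aqp4, the water channel of glial endfeet, gave different answers on different probes. The brightest probe, which the array annotates to a predicted transcript model, was at -3.24, -3.14 and -3.38 in B4KO organoids, -2.77, -2.23 and -2.55 in Isl1KO organoids, and -2.72, -2.41 and -2.64 in WT organoids on the 3 days. It differed little by day. The DD16 minus DD10 difference was 0.32 (SE 0.10, adjusted p = 0.0474), a call that was lost in 14 of 17 alternative analyses, and DD23 minus DD16 was -0.26 and did not pass (adjusted p = 0.0818).

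The other Aqp4 probes that could be measured, both assigned to the RefSeq transcript of the gene, came up at DD23. One, starting at chromosome 18 position 15547951 (mm9), had -4.13, -3.72 and -1.43 in B4KO organoids on the 3 days. It had -3.50, -3.41 and -1.92 in Isl1KO organoids and -3.17, -3.29 and -1.76 in WT organoids, so that every DD23 array exceeded every earlier one. The other, starting at 15551966, had -4.09, -3.80 and -2.31 in B4KO, -2.53, -3.15 and -2.25 in Isl1KO, and -2.83, -3.44 and -1.87 in WT organoids. In the fit of all probes, where 38.6% of probes changed between these days, the first rose by 1.77 at DD23 over DD16 (SE 0.24, adjusted p = 0.00365), 3.41-fold. The second rose by 1.33 (SE 0.27, adjusted p = 0.0126). The direction given by the brightest probe was thus not that of the gene's RefSeq transcript probes at this step.

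**Figure D2:**
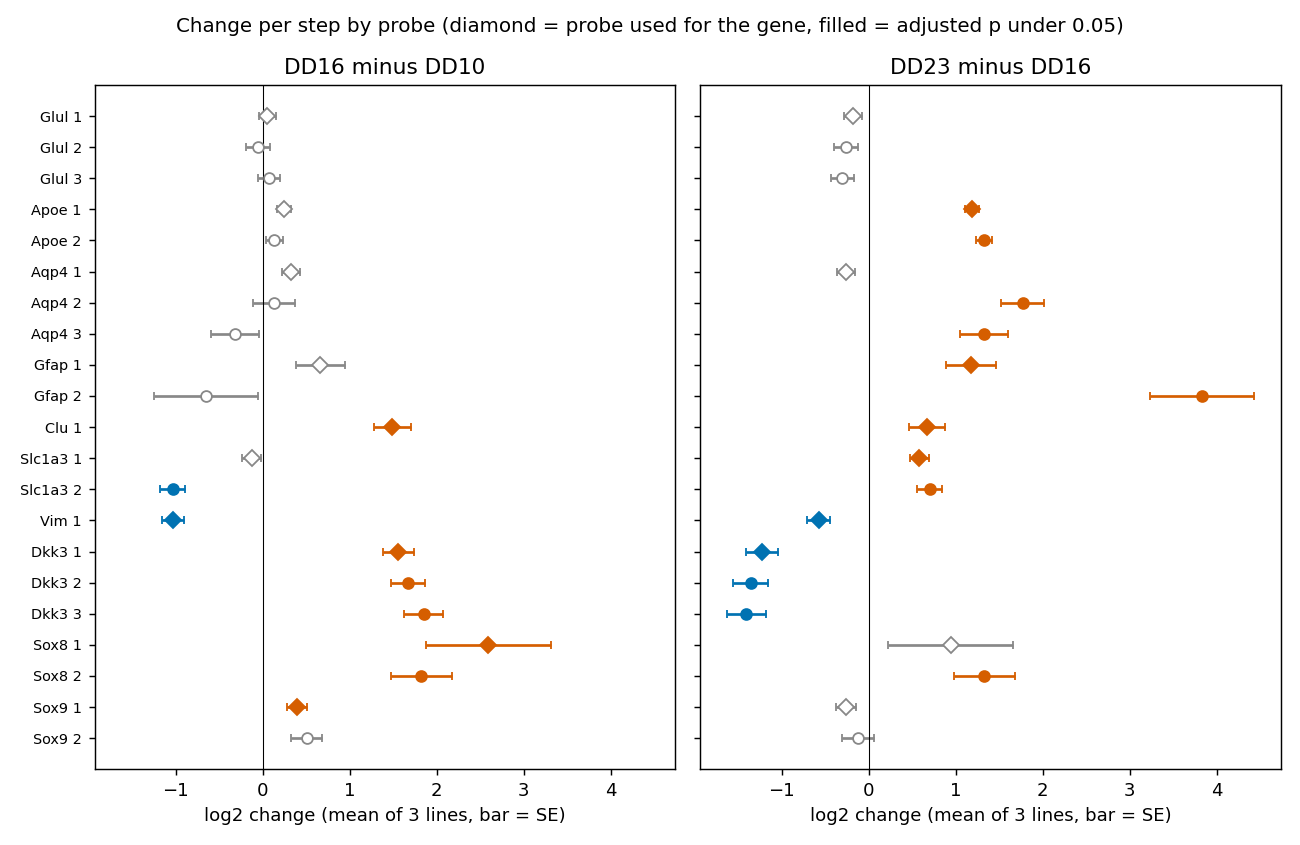
Log2 change of each measurable probe of the 10 genes from DD10 to DD16 (left) and DD16 to DD23 (right), as the mean of 3 lines with its SE, from the fit of 36326 probes; diamonds are the probe used for the gene and filled symbols passed. At the later step the probes of Apoe and Dkk3 coincide, whereas Aqp4 spreads from -0.26 to 1.77; the fitted later change of the second Gfap probe rests on dim DD16 arrays and is a bound in the text, and the earlier changes of both Sox8 probes include 1 dim DD10 array.

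Slc1a3 encodes GLAST, the glutamate transporter that clears glutamate into Mueller glia. Its used probe was at 0.52, 0.45 and 1.06 in B4KO organoids on the 3 days, 0.40, 0.43 and 1.06 in Isl1KO organoids, and 0.72, 0.39 and 0.89 in WT organoids. DD23 was the highest day in every line and no DD23 array overlapped an earlier one. The DD23 minus DD16 difference was 0.58 (SE 0.11, adjusted p = 0.00813), 1.5-fold, while DD16 minus DD10 was -0.12 and did not pass (adjusted p = 0.384). On the slide shared by Isl1KO and WT alone the later step was 0.57 and did not pass (adjusted p = 0.0618).

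A dimmer Slc1a3 probe, assigned to another transcript, had -2.60, -3.59 and -3.00 in B4KO, -3.37, -4.05 and -3.51 in Isl1KO, and -2.40, -3.84 and -2.87 in WT organoids. It was lowest at DD16 in each line. In the fit of all probes it fell by 1.03 from DD10 to DD16 (SE 0.15, adjusted p = 0.00412) and rose by 0.70 from DD16 to DD23 (SE 0.15, adjusted p = 0.0132). The later rise was thus seen on both probes and the earlier fall on 1 of them.

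Vim, the intermediate filament of progenitors that Mueller glia retain, fell at both steps. Its single probe was at 5.64, 4.54 and 4.31 in B4KO organoids on the 3 days. Isl1KO organoids had 5.67, 4.64 and 3.96, and WT organoids had 5.74, 4.77 and 3.95. DD10, DD16 and DD23 were fully separated. The DD16 minus DD10 difference was -1.03 (SE 0.13, adjusted p = 0.0026), 2.05-fold, and all 3 lines lay between -1.10 and -0.97. The DD23 minus DD16 difference was -0.58 (SE 0.13, adjusted p = 0.0144), with -0.23 in B4KO, -0.68 in Isl1KO and -0.82 in WT. This later call did not pass without either array of DD16 or DD23 of Isl1KO or of WT (adjusted p from 0.0535 to 0.0634).

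Dkk3, a secreted glycoprotein related to the Dickkopf family, peaked at DD16. Its levels were 5.95, 7.02 and 6.17 in B4KO organoids on the 3 days, 5.55, 7.09 and 5.80 in Isl1KO organoids, and 4.96, 7.03 and 5.49 in WT organoids. The 3 lines agreed closely at DD16, with 7.05 ± 0.04 (SD, n = 3 lines), and were spread more widely at DD10, with 5.49 ± 0.50. Dkk3 rose by 1.56 from DD10 to DD16 (SE 0.18, adjusted p = 0.0023), 2.95-fold. It fell by 1.22 from DD16 to DD23 (SE 0.18, adjusted p = 0.00436), 2.33-fold. All 3 Dkk3 probes passed at both steps in the same directions, and DD23 minus DD10 was 0.34 and did not pass (adjusted p = 0.158).

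Sox8 and Sox9 are transcription factors of the SoxE family, and Sox9 is needed in mouse for progenitors to take the Mueller glial fate. Sox8 was at -2.52, -1.69 and -0.81 in B4KO organoids on the 3 days and at -4.75, -2.28 and -1.38 in Isl1KO organoids. In WT organoids it was not well above background at DD10 and was at -2.04 and -0.99 on DD16 and DD23. Levels were higher on each later day in each line, with wide scatter at DD10. Sox8 rose from DD10 to DD16 (adjusted p = 0.0331), with 2 of 3 DD10 arrays well above background. With the WT array of DD10 held at the lowest signal counted as well above background on it, the difference was 1.93 (SE 0.37, adjusted p = 0.00876), at least 3.8-fold. The call on the values as measured did not pass in 6 of 16 alternatives, with adjusted p up to 0.118 without WT at DD16. DD23 minus DD16 was 0.94 on this probe and did not pass (adjusted p = 0.337), while the second Sox8 probe gave 1.33 (SE 0.35, adjusted p = 0.0285 in the fit of all probes). DD23 minus DD10 passed (adjusted p = 0.00673) and, with the same array held at that signal, was 2.87 (SE 0.37, adjusted p = 0.000765), at least 7.31-fold.

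Sox9 changed little. It was at 0.96, 1.5 and 1.22 in B4KO organoids on the 3 days, 0.70, 1.24 and 0.98 in Isl1KO organoids, and 1.03, 1.12 and 0.89 in WT organoids. The DD16 and DD10 arrays did not overlap, although WT differed by only 0.10. DD16 minus DD10 was 0.39 (SE 0.11, adjusted p = 0.0372), and the call was lost in 11 of 17 alternatives, with adjusted p up to 0.201. DD23 minus DD16 was -0.26 and did not pass (adjusted p = 0.119).

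Counted by step, 5 of the 10 genes rose and 1 fell from DD10 to DD16, where 40.7% of all genes changed (21.9% upward, 18.8% downward). From DD16 to DD23, 4 rose and 2 fell, where 41.2% of all genes changed (19.3% upward, 21.9% downward). The rises, 5 of 10 and then 4 of 10, were above the upward shares of all genes. Such small counts were not tested and are no result about the 10 genes together. In 44.2% of all genes the arrays of DD16 and DD10 did not overlap, and in 44.6% those of DD23 and DD16. For DD23 and DD10 the share was 54.3%. In the mature glial group 2 of 5 rose and none fell at the first step, and 3 of 5 rose and none fell at the second. The medians of this group were 0.32 and 0.67, against 0.03 and 0.01 over all genes. In the progenitor-shared group 3 rose and 1 fell at the first step, and 1 rose and 2 fell at the second, with medians of 0.39 and -0.26. Of the rises at the first step, those of Aqp4, Sox9 and Sox8 were lost in 14 of 17, 11 of 17 and 6 of 16 alternatives.

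**Figure D3:**
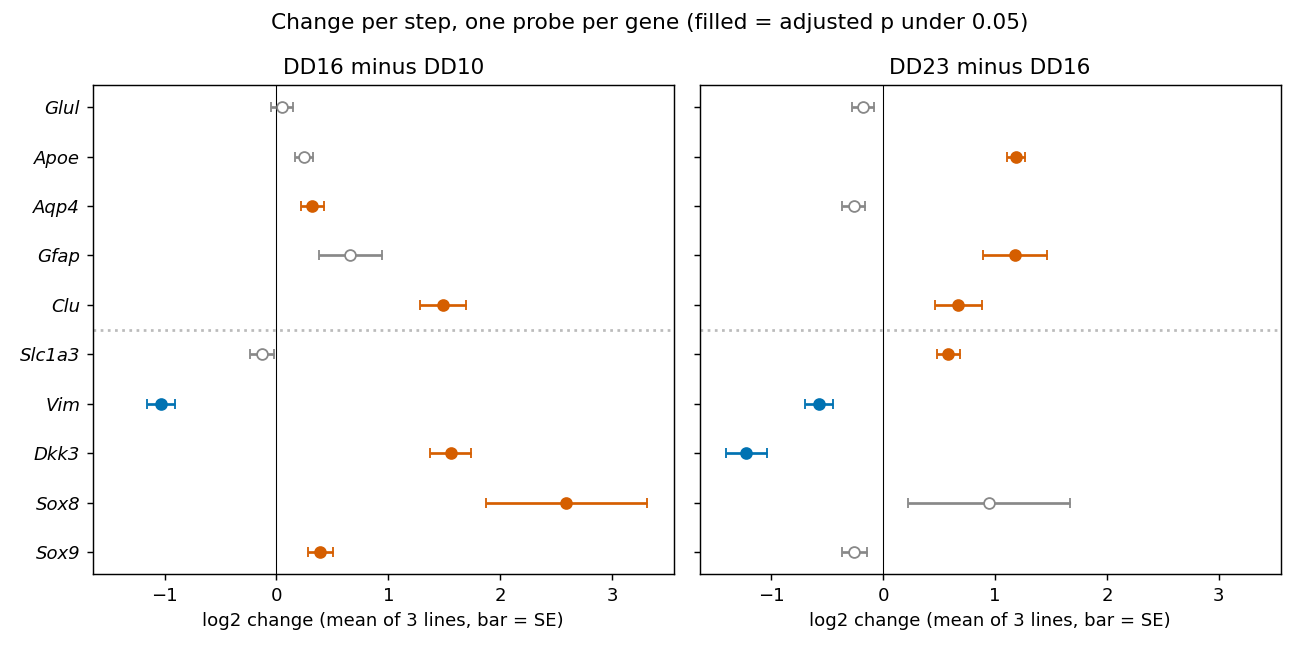
Log2 change of the 10 genes from DD10 to DD16 (left) and from DD16 to DD23 (right), 1 probe a gene, as the mean of 3 lines with its SE; the dotted line divides mature glial genes (above) from progenitor-shared genes (below), and filled symbols passed. The first change of Sox8 is drawn as fitted, with 1 DD10 array not well above background; Dkk3 and Vim are the 2 genes that fell at the second step, and Apoe and Gfap are the mature genes that rose by more than 1 unit there.

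Summed over its 5 genes, the linear level of the mature glial group, in units of the 75th percentile, was 32.4 to 35.4 at DD10, 47.5 to 54.9 at DD16 and 81.6 to 99.2 at DD23. The days did not overlap. The progenitor-shared sum was 88.2 to 115, then 157 to 165, then 64.6 to 97.1, with a DD16 peak set largely by Dkk3. From DD10 to DD23 the sum was lower in every line. Over that interval Dkk3 changed by 0.22 to 0.53 in the 3 lines and Vim by -1.79 to -1.33. Both sums are dominated by their brightest probes.

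A further 20 genes associated with Mueller glia were read in the same way, of which 19 could be tested and Cav1 was too dim. From DD10 to DD16, 11 rose and 4 fell, where 40.7% of all genes changed, with a median of 0.68. From DD16 to DD23, 8 rose and 2 fell, where 41.2% of all genes changed, with a median of 0.20. Over the whole interval 14 rose and 4 fell, where 60.7% of all genes changed. Crym, a thyroid hormone binding protein, was not well above background on any DD10 array. It was at least 39.5-fold higher at DD16 than at DD10 and rose by a further 4.07 at DD23 (SE 0.26, adjusted p = 0.000718). Ptgds, the prostaglandin D synthase, rose by 3.15 and then 1.0, and Car2, a carbonic anhydrase, rose by 1.42 and then 2.05. Espn, an actin-bundling protein, rose by 3.18 at the first step (SE 0.30, adjusted p = 0.00129).

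Kcnj10 encodes Kir4.1, the channel through which Mueller glia clear potassium. It was at -4.59, -3.24 and -2.60 in B4KO organoids on the 3 days, at -3.17 and -2.74 in Isl1KO organoids at DD16 and DD23 and not well above background there at DD10, and at -4.32, -3.61 and -1.97 in WT organoids. It rose at the first step (adjusted p = 0.0252), and the second step of 0.91 did not pass (adjusted p = 0.145). With the dim Isl1KO array held at the lowest signal counted as well above background on it, the first step was 1.37 (SE 0.26, adjusted p = 0.00874), at least 2.59-fold, and the second step passed (adjusted p = 0.034). Each line was highest at DD23.

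Rlbp1 encodes the retinaldehyde-binding protein of Mueller glia and pigment epithelium. It was at -0.12, -1.69 and 0.32 in B4KO organoids on the 3 days, -0.23, -2.0 and 0.75 in Isl1KO organoids, and 0.25, -1.90 and 0.29 in WT organoids. All lines dipped at DD16. It fell by 1.83 from DD10 to DD16 (SE 0.20, adjusted p = 0.00178) and rose by 2.32 from DD16 to DD23 (SE 0.20, adjusted p = 0.00103). Of 6 pigment epithelium genes tested of 8 listed, 4 fell at the first step (Pmel by 2.19 and Tyr by 1.73, for example), where 18.8% of all genes fell. At the second step, where 41.2% of all genes changed, Pmel fell by 1.60 and Rdh5 rose by 0.91 (adjusted p = 0.00661 by limma). The other 4 pigment epithelium genes did not pass there. The summed level of the 6 was 40.1 to 43.6 at DD10, 10.4 to 15 at DD16 and 6.25 to 9.74 at DD23. Pmel, at 5.09, 5.11 and 5.19 in B4KO, Isl1KO and WT organoids, made most of the DD10 sum. Rpe65 and Lrat were not measurable. The part of pigment epithelium in the Rlbp1 values was not tested.

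The other falls at the first step were Car14 (2.07 lower), Col9a1 (1.56 lower) and Cd44 (0.60 lower). At the second step Aldoc, a glycolytic enzyme of glia, rose by 1.61 (SE 0.18, adjusted p = 0.00204), and Slc38a3, a glutamine transporter, rose by 0.96. Prdx6 and Car14 fell at that step, by 0.81 and 0.56.

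**Figure D4:**
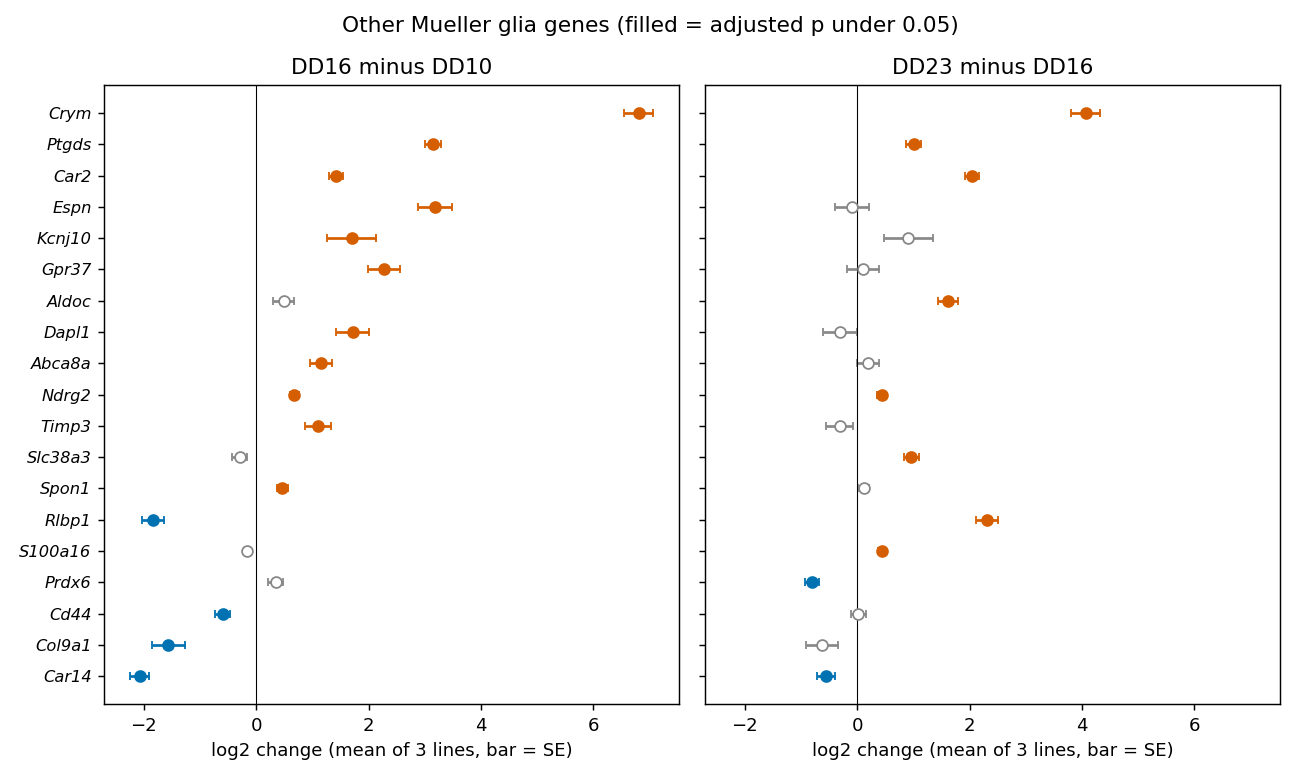
Log2 change from DD10 to DD16 (left) and from DD16 to DD23 (right) of the 19 further Mueller glia genes tested, as the mean of 3 lines with its SE, ordered by the change over the whole interval; filled symbols passed. Crym, Ptgds and Car2 rise at both steps and Rlbp1 reverses; the fitted first change of Crym rests on DD10 arrays not well above background, and that of Kcnj10 on 2 of 3 that were.

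Of 15 regulators of progenitors and gliogenesis, 7 rose and 3 fell from DD10 to DD16, where 40.7% of all genes changed. From DD16 to DD23, 1 rose and 8 fell, where 41.2% of all genes changed (21.9% downward). The medians were 0.07 and -0.91, against 0.03 and 0.01 over all genes. Hes5, a Notch target, rose by 2.19 at the first step (SE 0.23, adjusted p = 0.00174) and did not pass at the second. Ccnd1, the cyclin of retinal progenitors, rose by 1.69 and then fell by 2.47, and the Notch effector Hes1 rose by 0.83 and then fell by 2.40. Rax, an eye-field and glial transcription factor, rose by 1.31 at the first step, and Notch1 rose by 0.73 at the second. Id3 fell by 2.04 and 1.56, Sox2 by 0.66 and 1.30, and Zfp36l1 rose by 0.61 and then fell by 1.87. The glial factors Nfia, Nfib and Nfix did not pass at either step. All 12 cell cycle genes fell from DD16 to DD23, with a median of -1.52, where 21.9% of all genes fell. From DD10 to DD16, where 18.8% of all genes fell, 8 of the 12 had fallen. Their summed level was 151 to 186, 97.2 to 107 and 25.3 to 50.3 on the 3 days.

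Genes of other cells that share Mueller glia markers moved too, at steps where 40.7% and 41.2% of all genes changed. Of 6 astrocyte genes tested of 7 listed, 2 rose and 3 fell at the first step and 2 rose and 1 fell at the second. A fall and a rise among these were those of the connexin gene Gjb6, which was well above background on 3 DD10 arrays, on no DD16 array and on 1 DD23 array. With the dim arrays held at the lowest signal counted as well above background, neither step of Gjb6 passed (adjusted p = 0.0623 and 0.145). Slc1a2, a glutamate transporter of astrocytes that retinal neurons also make, rose by 3.63 and 1.56, whereas the gap junction gene Gja1 fell by 1.38 and 1.65. The summed astrocyte level was 8.35 to 11.7, 5.63 to 6.66 and 7.97 to 9.12 on DD10, DD16 and DD23. Pax2, which marks optic-nerve astrocytes, did not pass at either step, and S100b was not measurable. Of 6 choroid plexus genes tested of 7 listed, 3 rose and 1 fell at the first step. Kcne2 rose by 4.47 and then 2.11, Aqp1 by 2.98 and Ttr by 2.37. Clic6 fell by 1.80 at the first step (adjusted p = 0.0175 by limma), and Folr1 (-0.62) and Kcnj13 (-0.62) did not pass. The summed level was 16 to 20.3, 40.6 to 57.3 and 59.3 to 145 on the 3 days, mostly from Ttr at DD16 and DD23. Kl was not measurable. Clu is also made by choroid plexus, and its rise ran beside those of Kcne2, Aqp1 and Ttr but not beside Clic6, Folr1 or Kcnj13.

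For the counts that follow, 40.7% of all genes changed at the first step and 41.2% at the second. The oligodendrocyte lineage, with 7 of 7 genes tested, had 2 rises and 1 fall at the first step and 3 rises and 1 fall at the second. Its summed level lay between 4.57 and 6.82 on all arrays. Of 8 macrophage and microglia genes, Aif1, C1qa, Tyrobp and P2ry12 were not measurable, none of the other 4 passed at the first step, and 1 rose and 1 fell at the second. Mesenchyme genes (6 of 8 tested; Lum and Twist1 not measurable) had 1 rise and 1 fall at the first step and 1 rise and 2 falls at the second, with summed levels of 12 to 12.4, 9.59 to 10.5 and 5.73 to 11. Cartilage genes (3 of 6 tested, with Acan, Matn1 and Comp not measurable) summed to 50.7 to 58.3, 47.7 to 72.1 and 64.7 to 83.7 on the 3 days. Most of that sum came from Sox5 on every array. Lens genes (4 of 6 tested; Mip and Bfsp1 not measurable) summed to at most 0.421 on any array. The part that any of these cells had in the values of the 10 genes was not tested.

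For Isl1KO minus WT none of the 10 genes passed, with adjusted p from 0.599 to 0.952. Among the 9 genes well above background on all arrays the differences ran from -0.38 (Gfap) to 0.32 (Dkk3). The sign for Sox8 turned with the dim WT array of DD10, from 0.38 as measured to -0.29 with that array held at the lowest well-above-background signal and -0.59 without it. In this comparison 1 of 23594 genes passed (0.00424%) and 1924 had an unadjusted p below 0.05, of which Apoe was one, with 0.21 (unadjusted p = 0.04). Apoe was higher in Isl1KO than in WT organoids on all 3 days, by 0.37, 0.08 and 0.17. The dimmer Slc1a3 probe gave a larger difference of -0.60, which did not pass (adjusted p = 0.448 by limma in the fit of all probes). By day it was -0.97, -0.20 and -0.63.

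For B4KO minus WT 1 of 10 genes passed, where 22% of all genes passed (3.99% higher and 18% lower). The gene was Aqp4 on its brightest probe, which had -3.24, -3.14 and -3.38 in B4KO organoids at DD10, DD16 and DD23, against -2.72, -2.41 and -2.64 in WT organoids. Every B4KO array lay below every WT and Isl1KO array. The B4KO minus WT difference was -0.67 (SE 0.10, adjusted p = 0.0058), 1.59-fold lower, and it held in all 16 alternatives run (adjusted p from 0.00244 to 0.0499). Isl1KO minus B4KO was 0.74 (SE 0.10, adjusted p = 0.00373), and Aqp4 was the only member to pass with 1 probe a gene, where 21.9% of genes did (18.1% higher and 3.8% lower).

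On the 2 probes of the Aqp4 RefSeq transcript, B4KO minus WT was -0.35 (adjusted p = 0.362) and -0.69 (adjusted p = 0.145) in the fit of all probes, and neither passed. Isl1KO minus B4KO on these probes was 0.15 (adjusted p = 0.721) and 0.76 (adjusted p = 0.123), and neither passed. In that comparison and fit, where 16.5% of probes passed, the dimmer Slc1a3 probe did, with -0.58 (adjusted p = 0.0459). As B4KO had a slide of its own, line and slide cannot be told apart for this difference. On the same slide several genes of other lists were lower in B4KO than in WT: S100a16 by 1.51, Ptprc by 1.2, Pax2 by 1.70 and Mag by 1.48. The summed level of the 4 macrophage genes was 4.81 to 5.77 in B4KO organoids, 11 to 14 in Isl1KO organoids and 10.8 to 13.1 in WT organoids. Ptprc made most of this sum on every array, so the sum mainly repeats the Ptprc difference. Its levels were 1.99, 2.20 and 2.28 in B4KO and 3.21, 3.28 and 3.55 in WT organoids on the 3 days.

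Dkk3 was 0.55 higher in B4KO than in WT organoids on its used probe (SE 0.18) and did not pass (adjusted p = 0.0811). By day the B4KO minus WT differences were 0.99 at DD10, -0.01 at DD16 and 0.68 at DD23. The other 2 Dkk3 probes passed in the fit of all probes, where 16.5% of probes did, with 0.79 (adjusted p = 0.0437) and 0.92 (adjusted p = 0.0421). Gfap was 0.79 lower in B4KO than in WT organoids (SE 0.28, adjusted p = 0.101), with -0.92, -1.32 and -0.14 on the 3 days. Without the B4KO array of DD23 the difference was -1.16 and passed (adjusted p = 0.0155).

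At DD10 Sox8 was well above background in B4KO and Isl1KO organoids and not in WT organoids. Sox8 in Isl1KO, at -4.75, lay below the lowest well-above-background signal of the WT array (-4.52), so no bound between those arrays can be given. Its level in B4KO was at least 4.01-fold that in WT on the used probe and at least 2.7-fold on the second, a comparison of 1 array with another that has no replicate check. At DD16 and DD23 the B4KO minus WT differences were 0.35 and 0.18. Over the 3 days B4KO minus WT did not pass (adjusted p = 0.189), and with the WT array of DD10 held at its lowest well-above-background signal it was 0.84 (SE 0.37, adjusted p = 0.155).

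**Figure D5:**
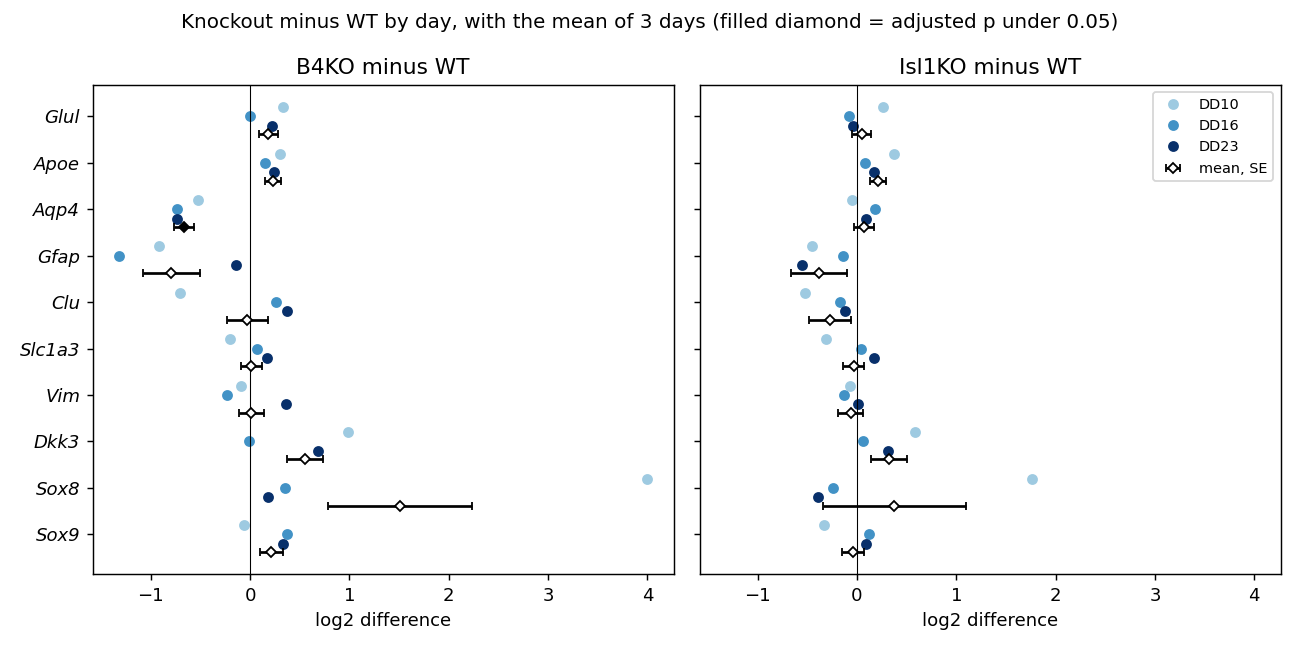
Log2 difference of B4KO from WT (left) and of Isl1KO from WT (right) for the 10 genes, with 1 point a day and the mean of 3 days with its SE (diamond, filled where passed). Aqp4 in B4KO is the one filled diamond, at -0.67, and the outlying Sox8 points are DD10, where WT was not well above background.

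Whether the knockouts departed from WT differently at DD23 than on the earlier days was tested with a separate term for each knockout at DD23. None of 23594 genes passed in limma for either knockout (1429 in B4KO and 1158 in Isl1KO had an unadjusted p below 0.05). Among the members, Gfap departed by 0.98 (unadjusted p = 0.0492, adjusted p = 0.818) and Vim by 0.53 (unadjusted p = 0.0338, adjusted p = 0.814) in B4KO, and no member had an unadjusted p below 0.05 in Isl1KO. The fit had 2 residual degrees of freedom.

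Across the 9 arrays, which share days and lines, the members fell into courses that resembled those of other genes. Likeness was the Pearson correlation over the 9 arrays, compared among 15110 genes well above background on at least 5 arrays, for the 7 members whose levels spanned at least 1 unit. Apoe was most like Paqr3 (r = 0.99), Lgalsl and Fem1a, and Clu was most like Cobl (r = 0.995), Cd55 and Slc35f3. Vim was most like Wdr90 (r = 0.99), Smpd4 and the cell cycle transcription factor E2f5. Dkk3 was most like Pabpc1 (r = 0.99), Epha2 and Dusp16, and Sox8 was most like Mxra7 (r = 0.97), Lrrc61 and Zdhhc14. Gfap was most like Abcc3 (r = 0.97), Cr2 and Otog. Aqp4 on its brightest probe was most like Dhrs13os (r = 0.99), Prlhr and Kcnk4. Among the members themselves, Vim ran opposite to Clu (r = -0.93), Apoe (r = -0.84) and Sox8 (r = -0.84). The 3 days gave most of the spread except for Aqp4, whose lines differed more than its days. Its means were -3.25 in B4KO, -2.52 in Isl1KO and -2.59 in WT organoids, and -2.91, -2.59 and -2.86 at DD10, DD16 and DD23. The correlations describe shared courses and carry no test.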

How the data were processed

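Total RNA of 9 pooled organoid samples was measured on single-colour (Cy3) Agilent arrays. Spot intensity was read by the authors in Agilent Feature Extraction (version 12.0.3.1), per the submitters' processing notes, and was background-subtracted without normalization between arrays, per the file headers. A deposited table of values had a 75th percentile of 1.00 on each array, a linear ratio to that percentile, as the check of the values showed for spots above 1; it served as an alternative. The 0 or 1 well-above-background and saturation flags are a deposited score per spot, per the file headers. From 57.3% to 67.8% of 59305 gene spots per array were well above background, and none was saturated.

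Processed intensity was averaged over spots of a probe, leaving out spots with an outlier flag. From these deposited values, levels were computed as log2 of the intensity divided by the array's 75th percentile over gene spots. Of 56605 probes, 32994 were named through RefSeq accessions (GRCm38.p6) and 23611 kept the file's name; probe coordinates are mm9, per the file headers. For each gene the brightest probe well above background on at least 3 of 9 arrays was used. Limma 3.58.1 in R 4.3.3 (data.table, version 1.17.8) fitted line plus day (4 residual and 2.01 prior degrees of freedom); the script was tested on simulated data. Where arrays of a group were not well above background, their values were raised to the lowest well-above-background signal on the array and the fold given as "at least"; counts of calls use the values as measured. All fold changes and p-values were computed here.

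The members and gene lists were chosen with earlier results of these data known. Named genes were all members and, of each other list, up to 3 of the largest rises and falls that passed in the comparison described, with other listed genes named for their role; for likeness, the 3 genes of highest correlation. Replicate numbers carry no pairing, and p-values set each difference against the departure from additivity, not against a spread between replicates.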

Additional observations from a re-analysis of the deposited data

How the results depend on the processing

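Alternatives were quantile normalization, normexp, the deposited value table, stricter and no filters on dim probes, the mean over a gene's probes, the slide of WT and Isl1KO alone, robust empirical Bayes with trend and leaving out each array in turn; every probe as its own feature, and values not well above background held at their array's lowest well-above-background signal, were added after seeing the data. The rise of Apoe at DD23 over DD16, both changes of Dkk3, the first changes of Vim and Clu, and the DD23 minus DD10 changes of Apoe, Vim, Gfap, Clu and Sox8 passed in the same direction under every alternative that gave a value. Aqp4 reversed at DD23 minus DD16 with the mean over probes (0.94, adjusted p = 0.00601 by limma) and on the probes starting at 15547951 (1.77) and 15551966 (1.33), and at DD16 minus DD10 on the probe starting at 15551966 (-0.32). Slc1a3 reversed at DD23 minus DD10 on the probe starting at 8630573 (-0.33). The cause was not tested.

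Members that passed at DD16 minus DD10 numbered 6; without a filter on dim probes 3 did, with normexp 8, and with 1 array left out from 3 to 5. At DD23 minus DD16 the number was 6, and from 3 (without WT at DD16) to 7. At DD23 minus DD10 it was 6, and from 5 to 7. For B4KO minus WT it was 1; 2 passed with normexp and with the mean over probes, 3 with robust empirical Bayes, and 1 to 2 with 1 array left out. For Isl1KO minus B4KO it was 1, 0 with the mean over probes, and 1 to 2 with 1 array left out. For Isl1KO minus WT it was 0 throughout.

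Over all genes, 9606 changed from DD10 to DD16, but 4899 on the slide of WT and Isl1KO alone and 5899 without Isl1KO at DD10. For B4KO minus WT 5193 passed (942 higher, 4251 lower), against 1815 higher and 4314 lower with normexp. Higher calls numbered 1947 with robust empirical Bayes, 207 with no filter, and from 153 (without WT at DD10) to 703 with 1 array left out; all calls then numbered at least 3417. Isl1KO minus WT had 1, but 4548 with no filter on dim probes. No paired analysis was possible because no line and day had a second replicate number; line, a term of the fit, already served as the block for differences between days.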
